A study of Homo sapiens with 27 samples.

Results

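U251 is an established human glioblastoma cell line, labelled brain, and it was compared here with 8 other human lines. Its members were the 3 libraries whose cell line label is U251, of 27 in all, and the other 24 libraries came in sets of 3 from lines of other tissues. These were SK-Mel 24 and SK-Mel 28 (melanoma, labelled skin), U2-OS (osteosarcoma, bone), A549 (lung adenocarcinoma, lung), Caco2 (colorectal adenocarcinoma), HepG2 (a liver tumour line), RT4 (a bladder tumour line, labelled kidney) and BJ (dermal fibroblasts, labelled epithelial). No line was treated or modified according to the labels. U251, Caco2, HepG2 and SK-Mel 28 were grown in EMEM with 10% fetal serum, SK-Mel 24 in EMEM with 15%, A549 and BJ in DMEM, and RT4 and U2-OS in McCoy medium, so that line and medium cannot be told apart for most comparisons. A single line stands for the tumour type, the series design calls its 3 libraries biological replicates without saying how separate their cultures were. The p-values therefore speak of the spread among these libraries and no more.

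Glioblastomas are diffuse tumours of the adult brain that carry features of astrocytes and of the neural stem cells of the developing brain. Recurrent lesions touch the receptor tyrosine kinases and their phosphoinositide kinase pathway and the inhibitors of the cyclin D kinases, and tumours are often described as classical, mesenchymal or proneural by the genes they express. Several surface proteins that are scarce in normal brain, among them IL13RA2 and EPHA3, have been pursued as targets for toxins, antibodies or engineered T cells.

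Poly-A RNA was sequenced, and each library held 18671959 to 28511206 estimated counts in U251 and 15597117 to 32583547 in the other lines. Levels are given as TPM (a share of all transcripts in the library, scaled to transcript length), and differences come from edgeR's quasi-likelihood test on the estimated counts of 17220 genes. A gene was called higher or lower in U251 when it differed from the mean of the other 8 lines by at least 1 on the log2 scale and its Benjamini-Hochberg adjusted p was under 0.05. It was called enriched, or lowest, when it passed a one-sided test against each of the 8 lines and lay at least 4-fold above, or below, the next line. Mitochondrial transcripts took 33.3 to 71.6% of the counts in HepG2, against 0.96 to 1.48% in U251, which lowers the TPM of every other gene in HepG2, while the test rescales for it. In bulk RNA, fewer expressing cells and less RNA per cell cannot be told apart.

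The label was checked against FABP7, SOX2, IL13RA2 and EPHA3, and all of them were higher in U251 than in the mean of the other lines. IL13RA2, a receptor that binds interleukin 13, had 253, 291 and 182 TPM in the 3 U251 libraries, against 11.3 ± 1.4 TPM in SK-Mel 24 (SD, n = 3), 2.66 TPM in SK-Mel 28, 2.39 TPM in BJ and under 0.6 TPM in the mean of each remaining line. Every U251 library lay above all 24 others, and 3 lines held no IL13RA2 count at all. Its margin over SK-Mel 24 was 21.7-fold (adjusted p = 3.42e-07), and the log2 difference from the other lines' mean was 9.25 with each line at 0 set to 3 counts. EPHA3, a receptor tyrosine kinase for ephrin-A ligands, had 57.4, 77.6 and 51.8 TPM in U251, against 2.74 ± 0.372 TPM in SK-Mel 28 and 1.28 TPM in SK-Mel 24. It too was above all other libraries, 22.7-fold over SK-Mel 28 (adjusted p = 2.68e-10).

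FABP7, a fatty acid-binding protein of radial glia, and SOX2, a transcription factor of neural stem cells, were less particular. FABP7 had 92.1, 157 and 125 TPM in U251, against 109.7 ± 22 TPM in SK-Mel 24 and 46.3 ± 2.58 TPM in SK-Mel 28 (SD, n = 3 each), and at most 0.414 TPM in the mean of any other line. U251 and SK-Mel 24 overlapped, with a log2 difference of 0.22 (adjusted p = 0.603), while the difference from SK-Mel 28 was 1.4 (adjusted p = 0.000469). SOX2 had 35.6, 46.0 and 36.6 TPM in U251, against 16.9 ± 6.45 TPM in Caco2, 9.66 TPM in A549 and 9.41 TPM in U2-OS. All U251 libraries were above all others, but the margin over Caco2 was 2.17-fold, so that SOX2 was called higher (log2 difference 6.1, adjusted p = 7.29e-14) and not enriched.

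**Figure D1:**
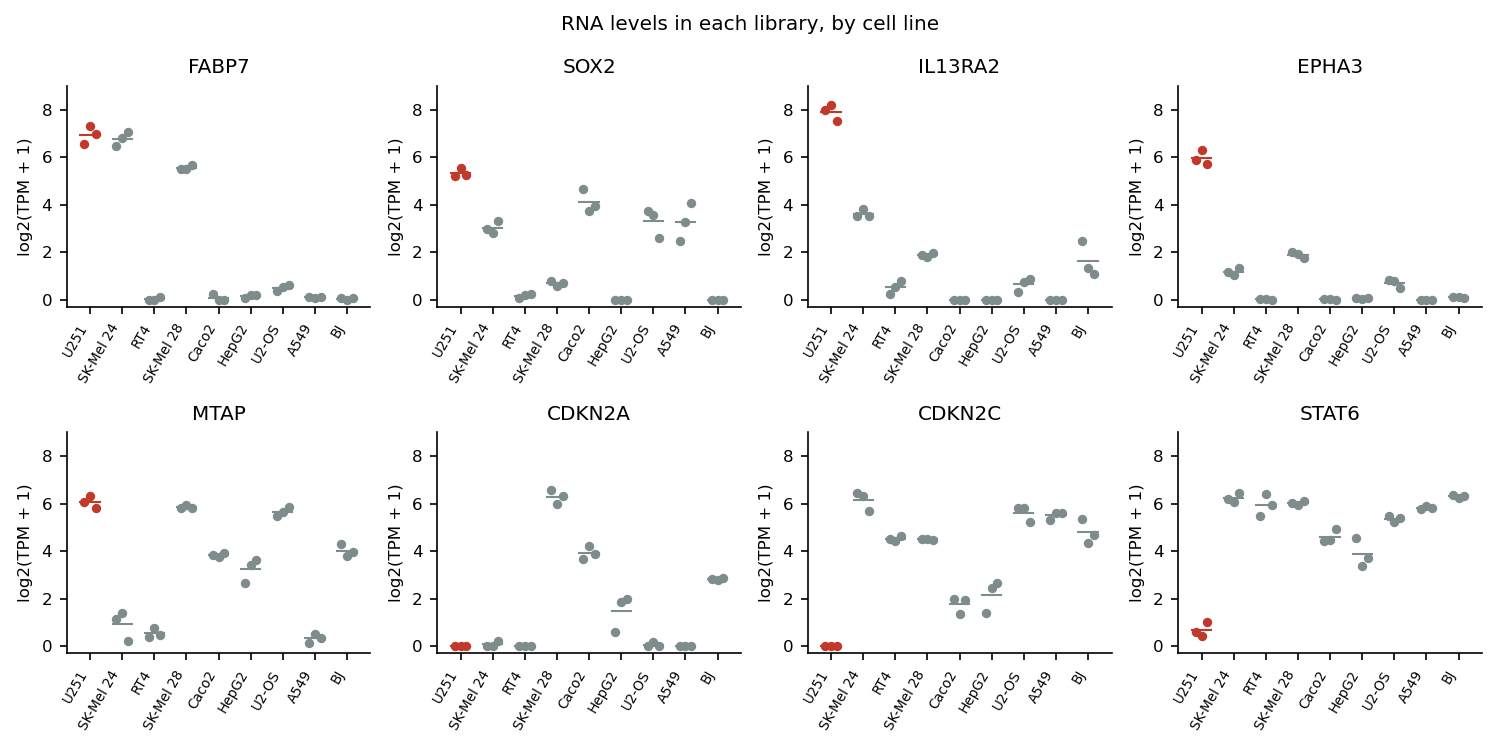
RNA levels of 8 genes in each library, as log2(TPM + 1) on the vertical axis, with U251 in red at the left and the other 8 lines in grey, and a bar at each line's mean. IL13RA2 and EPHA3 stand alone in U251, FABP7 is shared with both SK-Mel lines, CDKN2C is at 0 in U251 alone, CDKN2A is at or near 0 in 5 of the 9 lines, and STAT6 is lowest in U251.

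By the whole transcriptome, U251 was nearest to SK-Mel 24. The fit called 5319 genes different between U251 and SK-Mel 24 (13.6% of tested genes higher in U251 and 17.3% lower) and 5626 between U251 and A549 (14.9% and 17.8%). The counts were 6035 for BJ (16.0% and 19.0%), 6132 for SK-Mel 28 (16.1% and 19.5%) and 6161 for U2-OS (13.9% and 21.9%). They were 6582 for RT4 (18.6% and 19.6%), 7199 for Caco2 (20.2% and 21.6%) and 9487 for HepG2 (28.0% and 27.1%). Spearman coefficients across tested genes were 0.978 to 0.986 between U251 libraries, 0.861 to 0.879 between U251 and SK-Mel 24 libraries, and 0.69 to 0.724 between U251 and HepG2 libraries. Genes are not independent replicates, so these coefficients only describe the order of likeness. Among the U251 libraries, 8434 genes reached 10 TPM in at least 1 library, and 78 to 443 of them differed by more than 2-fold in a pair. Replicate 2 took part in both of the larger counts.

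By TPM, every U251 library was above all 24 others for 366 tested genes (2.13%) and below them all for 141 (0.819%). Against the mean of the other 8 lines, 2576 genes were higher in U251 (15.0% of those tested) and 1993 were lower (11.6%). Without HepG2 these counts were 2266 and 2028, and without U251 replicate 2 they were 2396 and 1881. The contrast is an average on a log scale, and it has 2 limits that touch the lists described further on. A line at 0 counts pulls the average down, so that some genes pass as higher while scarce in U251, and a gene cannot pass as lower while another line is at 0.

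A set of 54 genes was enriched in U251 (0.314% of those tested), 50 of them protein coding, and in 53 of them every U251 library lay above all 24 others. The count was 59 without HepG2, 44 without U251 replicate 2, 34 with limma on log2(TPM + 1) (28 of them shared) and 17 with the P number of the sample titles, whose meaning is not stated, as a block (15 shared). With that block the enriched calls were lost for MCF2, MSTN, IRX1, CGB8, SLC16A9, EPHA3, GPM6A, HS3ST3A1, SH3BGR, CD70, UNC5D, VCAN, PAPPA2 and PTPRB among the genes named here, and MSTN, CGB8, SLC16A9 and UNC5D were then not called higher either (adjusted p = 1). U2-OS was the next highest line for 13 of the 54 genes, and BJ and SK-Mel 24 for 9 each. The largest margins were those of MCF2, the DBL exchange factor for small GTPases, and MSTN, the muscle growth inhibitor myostatin, both 108.9-fold over U2-OS. MCF2 had 35.3, 43.1 and 26.7 TPM in U251, against at most 0.45 TPM in any other library. MSTN had 13.1, 11.6 and 6.54 TPM in U251, against at most 0.14 TPM elsewhere.

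Several enriched genes encode membrane proteins. GPM6A, a membrane glycoprotein of neurons, had 99.8, 127 and 116 TPM in U251, against 3.11 ± 0.255 TPM in SK-Mel 24, the line with the next highest TPM. S1PR1, a receptor for sphingosine 1-phosphate, had 79.1, 68.2 and 47.3 TPM in U251, against 7.56 ± 4.48 TPM in BJ. PTPRB, a receptor phosphatase known from blood vessels, had 7.98, 8.59 and 7.55 TPM in U251, against 4.15 ± 0.997 TPM in SK-Mel 24. On counts, which are not divided by transcript length, the next line for PTPRB was SK-Mel 28, at 1.12 TPM. UNC5D, a netrin receptor, had 8.17, 10.3 and 7.07 TPM in U251, against 1.57 ± 0.236 TPM in U2-OS. Margins by the fit ran from 6.37-fold for PTPRB to 12.5-fold for GPM6A. All U251 libraries exceeded all others for each of these genes, as for 53 of the 54 enriched genes, so this is no further result. Without single libraries the GPM6A margin ran from 3.15 to 5.79 on the log2 scale, and with limma the enriched calls of PTPRB and UNC5D were lost (log2 margins 0.83 and 1.88).

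Immune ligands were in this group too. CD274, which encodes the checkpoint ligand PD-L1, had 50.6, 51.1 and 27.6 TPM in U251, against 6.18 ± 0.268 TPM in SK-Mel 28, 5.54 ± 5.12 TPM in U2-OS and 4.67 ± 1.88 TPM in BJ. Its margin was 8.29-fold over BJ, the next line by the fit (adjusted p = 0.00262). The neighbouring gene PDCD1LG2, which encodes PD-L2 and was chosen after its value was seen, was highest in BJ, with 11.6 ± 2.43 TPM in U251 and 44.3 ± 6.36 TPM in BJ. CD70, the ligand of the costimulatory receptor CD27, had 223.5, 109.6 and 176.4 TPM in U251, against 23 ± 4.71 TPM in A549 and 21.8 ± 7.54 TPM in SK-Mel 28, a margin of 7.34-fold (adjusted p = 0.000155).

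Matrix and protease genes were also enriched, and PLAU had the highest level of the 54. PLAU, the urokinase that activates plasminogen, had 1173, 1213 and 1239 TPM in U251, against 188.9 ± 54.9 TPM in RT4 and 113.5 ± 28.9 TPM in A549, and was 5.22-fold over RT4 (adjusted p = 0.0018). VCAN, the proteoglycan versican of brain matrix, had 194, 252 and 199.6 TPM in U251, against 27.9 ± 5.33 TPM in SK-Mel 24. HS3ST3A1, a heparan sulfate sulfotransferase, had 59.3, 26.4 and 58.8 TPM in U251, against 5.45 ± 2.59 TPM in SK-Mel 24. PAPPA2, a protease that cuts insulin-like growth factor-binding proteins, had 7.55 ± 1.37 TPM in U251 and 1.29 ± 0.352 TPM in SK-Mel 24. The enriched call of PAPPA2 was lost with limma (log2 margin 1.9).

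The remaining named enriched genes spanned several roles. IRX1, a homeodomain factor, averaged 8.73 ± 3.66 TPM in U251 and 0.103 ± 0.0872 TPM in BJ, and 6 of the other lines held no count. GBP5, an interferon-induced GTPase, averaged 5.05 ± 1.22 TPM in U251 and 0.263 ± 0.132 TPM in U2-OS, and SLC16A9, a carrier of the monocarboxylate transporter family, averaged 6.74 ± 1.74 TPM in U251 and 0.627 ± 0.277 TPM in U2-OS. SH3BGR averaged 80.3 ± 11.3 TPM in U251 and 14.8 ± 2.62 TPM in SK-Mel 24. CGB8, a chorionic gonadotropin beta gene, averaged 5.57 ± 0.366 TPM in U251, but it has near-identical copies, among them the adjacent enriched CGB5, and the split of reads between them is uncertain.

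**Figure D2:**
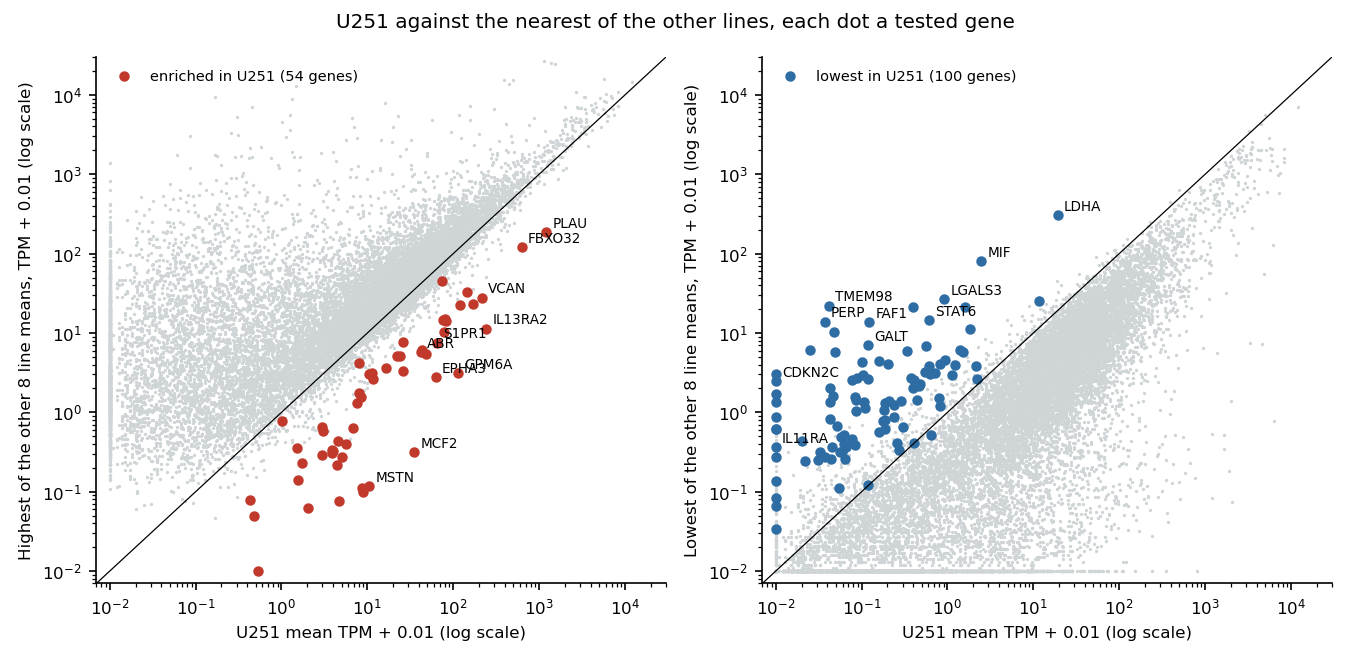
Mean TPM of each tested gene in U251 (horizontal axis) against the highest (left) or lowest (right) of the other 8 line means (vertical axis), on log scales with a small constant added, and a line where both are equal. The 54 enriched genes lie under the line at the left, with PLAU furthest to the right among them, and most of the 100 lowest genes lie above it at the right, with CDKN2C and IL11RA at 0 in U251.

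More genes were lowest in U251 than enriched in it: 100 (0.581% of those tested), 95 of them protein coding, and for 84 every U251 library lay below all 24 others. The count was 147 without HepG2, 92 without U251 replicate 2 and 16 with limma on log2(TPM + 1), all 16 of them shared. The order depended on the method. With limma fewer genes were lowest (16) than enriched (34). By TPM, fewer had every U251 library below all others (141) than above them (366). A stricter reading by TPM found 8 genes under 0.1 TPM in each U251 library and at 1 TPM or more in each of the other 24, and none with the reverse pattern. These were APOBEC3B, CDKN2C, CPPED1, PERP, PPARG, RIOX1, SH3BP1 and TMEM98.

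PERP, a membrane protein with roles in desmosomes and apoptosis, had 0.025, 0.0377 and 0.0173 TPM in U251, against 6.15 to 164 TPM in the other libraries with a median of 56.7. It was 405.9-fold under U2-OS, the next lowest line (adjusted p = 1.07e-14). TMEM98, a transmembrane protein, had 0.035, 0.0121 and 0.0485 TPM in U251, against 12.6 to 218.9 TPM in the other libraries, and was 336.8-fold under A549. RIOX1, a ribosomal oxygenase, had 0.0231, 0.0233 and 0 TPM in U251, against 2.39 to 17.0 TPM elsewhere. CPPED1, a phosphatase, had 0.0408, 0.0376 and 0.035 TPM in U251, against 8.64 to 72.0 TPM elsewhere. The rule that picked the 8 genes allows no overlap between U251 and other libraries, so its absence for these 4 genes is no further result. The U251 values rest on 2 to 12 counts per gene over 3 libraries. APOBEC3B, a DNA cytidine deaminase, had 0, 0.0489 and 0.0669 TPM in U251, against 1.74 to 169.1 TPM elsewhere, but it is similar in sequence to its APOBEC3 neighbours and its counts are uncertain.

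Lipid and lectin genes were also among the lowest. PLIN2, which coats lipid droplets, had 0.402, 0.417 and 0.326 TPM in U251, against 11.3 to 313.5 TPM in the other libraries, and was 85.9-fold under A549 (adjusted p = 6.14e-14). LGALS3, the galactose-binding lectin galectin 3, had 0.911, 0.908 and 0.908 TPM in U251, against 5.63 to 1565 TPM elsewhere, and was 46.3-fold under U2-OS (adjusted p = 2.92e-09). PPARG, the nuclear receptor of fat storage, had 0, 0.0578 and 0.0514 TPM in U251, against 1.33 to 203.8 TPM elsewhere. SH3BP1, a GTPase-activating protein, had no count in U251, against 1.33 to 111.3 TPM elsewhere, which is at least 43.0-fold under the next line. PLIN2 and LGALS3 did not overlap between U251 and the other lines, as for 84 of the 100 lowest genes, so this is no further result. PPARG and SH3BP1 were named from the list of 8, whose rule allows no overlap, after their values were seen.

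LDHA and MIF, also chosen after their values were seen, were abundant in most other lines. LDHA, the lactate dehydrogenase subunit that favours lactate formation, had 18.5, 22.6 and 16.4 TPM in U251, against 117 to 2699 TPM in the other libraries with a median of 1855, and was 19.5-fold under Caco2 (adjusted p = 1.3e-12). What remained was assigned to 1 coding transcript, LDHA-203, at 15.3 to 21.9 TPM, and the other LDHA transcripts were each under 1 TPM in every U251 library. LDHB, the subunit that favours pyruvate, averaged 1653 ± 107.9 TPM in U251, against 2345 ± 58.6 TPM in RT4 and 0.333 ± 0.342 TPM in HepG2. Its log2 difference of 1.41 rested on HepG2: without that line it was 0.13 and the call was lost (adjusted p = 0.388). The lactate carriers SLC16A1 and SLC16A3 averaged 70.6 ± 9.84 and 180.2 ± 67 TPM in U251 and were both higher than the other lines' mean (log2 differences 1.73 and 2.44, adjusted p = 1.82e-11 and 2.03e-10). MIF, a secreted cytokine, had 2.93, 1.04 and 3.36 TPM in U251, against 62.1 to 480.4 TPM elsewhere, and was 27.3-fold under A549 (adjusted p = 1.14e-05). LDHA and MIF have processed copies in the genome that could take or lend reads, so their levels are uncertain to that extent.

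The interleukin 13 pathway showed a high decoy receptor beside a near-absent transcription factor. Interleukins 4 and 13 signal through IL4R and IL13RA1, the kinases JAK1 and TYK2 and the factor STAT6, while IL13RA2 is known mainly as a decoy. STAT6 had 0.488, 0.325 and 0.995 TPM in U251, against 9.24 to 86.6 TPM in the other libraries with a median of 57.0. STAT6 in U251 was 134.4-fold under Caco2, the next lowest line (log2 difference from the other lines' mean -8.19, SE 0.3, adjusted p = 4e-17). No library overlapped, as for 84 of the 100 lowest genes, to which STAT6 belongs. IL13RA1 had 52.3, 60.2 and 40.5 TPM in U251, against 5.83 to 84.6 TPM elsewhere, and its log2 difference of 0.23 did not pass (adjusted p = 0.0692). IL4R, JAK1 and TYK2 averaged 6.81, 56.0 and 34.7 TPM in U251 with log2 differences of -0.26, 0.19 and 0.21 that did not pass. SOCS1, an inhibitor of the same kinases, was lower, at 0.21 ± 0.186 TPM in U251, although SK-Mel 28 was lower still at 0.0951 TPM. The SOCS1 call was lost with limma (-0.99). Of 11 genes on this list, IL4 and IL13 were too low to test. Of the 9 tested, 1 was higher (11.1%, against 15.0% of all tested genes) and 2 were lower (22.2%, against 11.6%). The median log2 difference was -0.26, against -0.02 over all tested genes, so the contrast lay in IL13RA2 and STAT6 and not in the list as a whole.

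IL11 and its receptor formed a second pair of opposite sign, chosen after their values were seen. IL11, a cytokine of the interleukin 6 family, had 90.8, 60.8 and 93.1 TPM in U251, against 14 ± 4.41 TPM in BJ and 8.04 ± 1.43 TPM in U2-OS, a margin of 4.9-fold (adjusted p = 0.000353). IL11RA, the receptor subunit that binds it, had no count in any U251 library, against 0.09 to 25.1 TPM in the other libraries. U251 was at least 14.2-fold under the next line when its 0 was set to 3 counts. GALT, a galactose enzyme whose annotated span overlaps that of IL11RA by 333 bases on the same strand, had 0.0435, 0.114 and 0.166 TPM in U251, against 2.86 to 62.7 TPM elsewhere, and was 85.9-fold under U2-OS (adjusted p = 6.85e-15). DCTN3, a nearby gene on the opposite strand, was expressed in U251 at 106.9 TPM.

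CDKN2C, which encodes the cyclin D kinase inhibitor p18, was absent from U251 and present in every other library. CDKN2C had no count in the 3 U251 libraries, against 1.54 to 85.5 TPM in the other 24 with a median of 23.1. With 3 counts in place of 0, U251 was at least 86.4-fold under the next line and at least 653.2-fold under the median line. FAF1, a ubiquitin-binding protein that runs from the same place on the opposite strand, had 0.0694, 0.116 and 0.149 TPM in U251, against 5.38 to 160.9 TPM in the other libraries with a median of 77.5, and was 164.6-fold under HepG2 (adjusted p = 1.12e-17). No library of another line overlapped U251 for FAF1, as for 84 of the 100 lowest genes, to which FAF1 belongs. CDKN2C is one of the 8 genes whose rule allows no overlap. The annotated genes lie 482 bases apart on chromosome 1 (FAF1 at 50437028 to 50960263 on the minus strand and CDKN2C at 50960745 to 50974633 on the plus strand, GENCODE 29 on GRCh38). RNF11, the next tested gene beyond CDKN2C, had 151.6, 146.6 and 104.7 TPM in U251. TTC39A after it was lower, at 1.16 TPM, and EPS15 and OSBPL9 further along averaged 26.2 and 93.9 TPM. On the far side of FAF1, DMRTA2 had no count in U251 or in 3 other lines.

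The promoter windows of CDKN2C and FAF1 (RefSeq, GRCh38.p14, 250 bases before to 50 bases after the start, 5′ to 3′ on each gene's own strand) are shown because both genes were at or near 0 in U251 and the windows, on opposite strands, share 23 bases. Capitals mark CpG pairs. CDKN2C has 3 starts listed, of which this is the first, at chr1:50960495-50960794 on the plus strand, and FAF1 is at chr1:50960218-50960517 on the minus strand.
CDKN2C: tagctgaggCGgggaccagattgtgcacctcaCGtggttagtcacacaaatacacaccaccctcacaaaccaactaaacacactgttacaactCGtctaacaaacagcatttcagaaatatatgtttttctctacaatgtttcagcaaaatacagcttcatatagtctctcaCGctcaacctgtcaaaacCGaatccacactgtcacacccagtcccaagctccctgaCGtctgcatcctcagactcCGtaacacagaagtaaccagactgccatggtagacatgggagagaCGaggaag
FAF1: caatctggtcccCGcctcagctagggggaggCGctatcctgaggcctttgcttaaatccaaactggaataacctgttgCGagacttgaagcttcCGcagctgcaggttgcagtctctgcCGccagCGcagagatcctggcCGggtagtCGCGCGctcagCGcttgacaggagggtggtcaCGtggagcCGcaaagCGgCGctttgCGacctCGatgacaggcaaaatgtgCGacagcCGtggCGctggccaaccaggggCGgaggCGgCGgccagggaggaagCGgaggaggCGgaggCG
The CDKN2C window holds 8 CpG pairs, and 14.6% of the windows of tested genes hold fewer. The FAF1 window holds 26, close to the median of 25.0.

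The classical locus of cyclin D kinase inhibitor loss on chromosome 9 was silent too, but not in U251 alone. CDKN2A, which encodes p16 and p14ARF, had no count in U251, RT4 and A549, at most 0.0574 TPM in the means of SK-Mel 24 and U2-OS, and 78.9 ± 15.5 TPM in SK-Mel 28. CDKN2B, which encodes p15, had no count in U251, SK-Mel 24, RT4 and A549, against 19.1 ± 1.18 TPM in SK-Mel 28. The edgeR contrast could not call either gene while other lines were at 0 (adjusted p = 1 for both), whereas DESeq2 did (adjusted p = 8.78e-05 for CDKN2A and 3.75e-06 for CDKN2B). MTAP, the adjacent methionine salvage enzyme that is often lost with CDKN2A, was kept in U251, at 65.8, 79.4 and 55.1 TPM. It averaged 57.5 ± 3.15 TPM in SK-Mel 28, 49.5 ± 6.89 TPM in U2-OS and 1 TPM or less in SK-Mel 24, RT4 and A549. The U251 log2 difference from the other lines' mean was 3.12 (SE 0.13, adjusted p = 2.88e-16), and the difference of 0.02 from SK-Mel 28 did not pass (adjusted p = 0.961).

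Along this region, expression in U251 ended and resumed as the gene order ran. KLHL9 averaged 14.0 ± 3.48 TPM and IFNWP19, an interferon pseudogene, 1.41 ± 0.142 TPM before MTAP. DMRTA1 and ELAVL2 beyond CDKN2B averaged 0.397 and 0.237 TPM, within the range of the other lines. TUSC1 had no count in U251, against 3.68 to 9.34 TPM in the means of 6 other lines, 0.444 TPM in Caco2 and 0 in HepG2. CAAP1, the next tested gene, was expressed at 19.2 ± 4.79 TPM. Among inhibitors elsewhere, CDKN2D, which encodes p19 and was chosen after its value was seen, was higher in U251 at 24.7 ± 2.9 TPM, against 17.1 ± 3.13 TPM in SK-Mel 28 (log2 difference from the other lines' mean 1.49, adjusted p = 7.67e-06).

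Of the 100 lowest genes, 5 pairs were neighbours in the order of tested genes, and all 5 were named after their values were seen. Besides FAF1 with CDKN2C and GALT with IL11RA, they were MYO1D with TMEM98 on chromosome 17, NAP1L4 with CARS on chromosome 11 and PDGFRL with MTUS1. MYO1D, an unconventional myosin, had 0.171, 0.664 and 0.272 TPM in U251, against 1.01 to 128.1 TPM elsewhere, and was 15.6-fold under A549 (adjusted p = 6.23e-11). NAP1L4, a histone chaperone, had 7.44, 18.9 and 8.18 TPM in U251, against 10.0 to 181.1 TPM elsewhere, so that it overlapped HepG2 by TPM. CARS, the cysteine tRNA ligase, had 2.34, 1.45 and 1.63 TPM in U251, against 3.54 to 159.7 TPM elsewhere. Gaps between the genes of a pair were 50733 bases on chromosome 17 and 8545 bases on chromosome 11, and the genes on both sides of MYO1D and TMEM98 (PSMD11 at 138.7 TPM and ZNF830 at 12.0 TPM, for example) were expressed in U251. The deposited values hold no DNA copy number or methylation, and the part of either in these adjacent pairs was not tested.

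**Figure D3:**
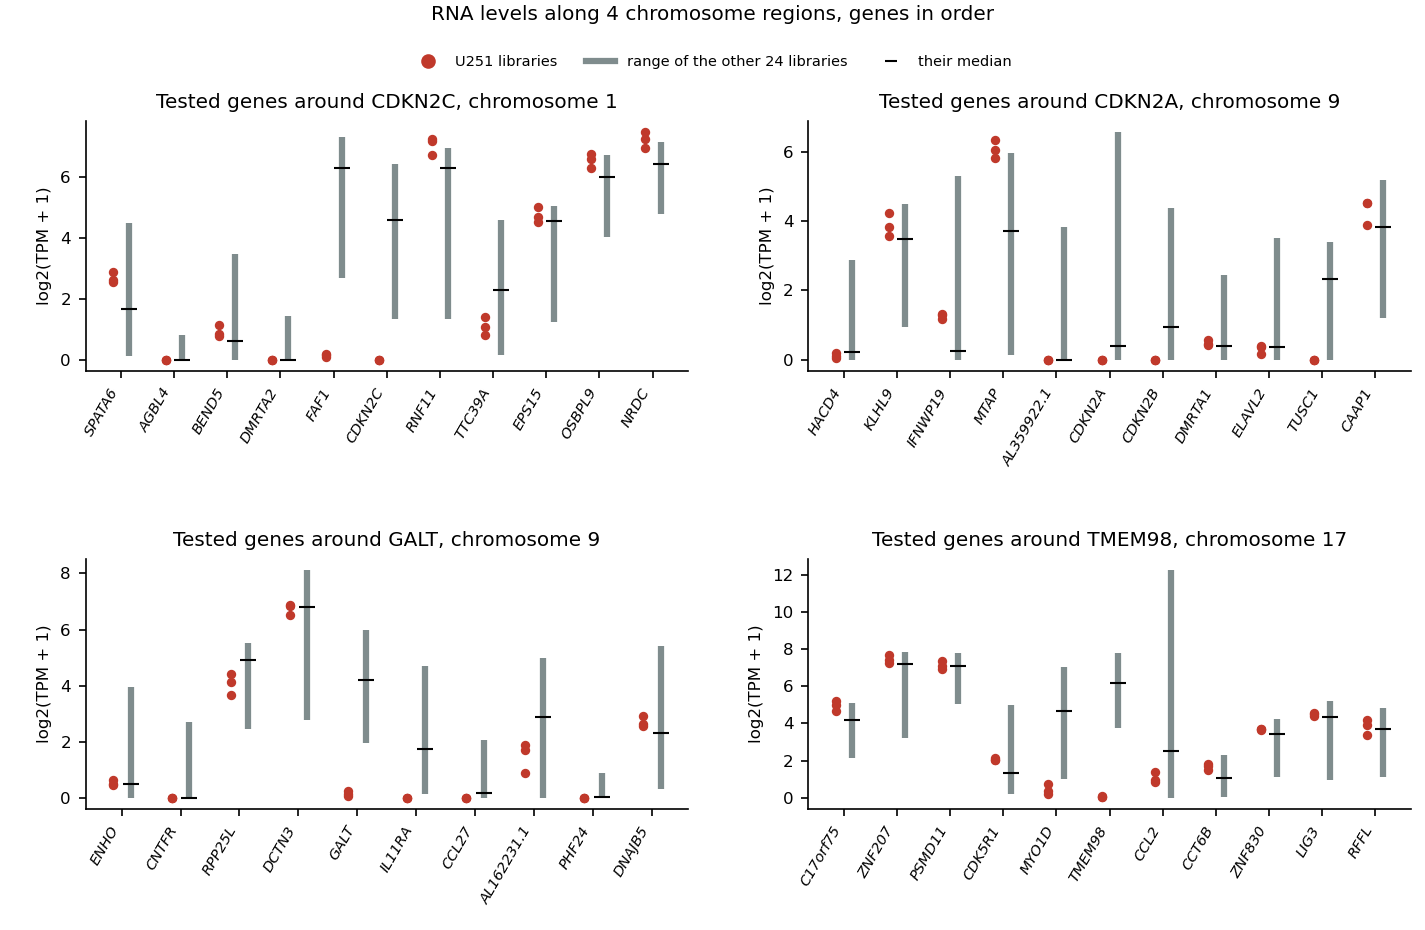
RNA levels along 4 chromosome regions as log2(TPM + 1), with tested genes in genomic order on the horizontal axis, the 3 U251 libraries as red points and the range of the other 24 as a grey bar with its median. Adjacent genes with all 3 U251 libraries below the other 24 appear as FAF1 with CDKN2C, GALT with IL11RA (whose lowest other library is at 0.09 TPM) and MYO1D with TMEM98, while CDKN2A has other lines at 0 as well.

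The genes of the astroglial list were mostly higher in U251, but several defining markers of mature astrocytes were at or near 0. Of 23 genes, 22 were tested. Of these, 13 were higher (59.1%, against 15.0% of all tested genes) and 4 were lower (18.2%, against 11.6%). The median log2 difference was 1.60, against -0.02 over all tested genes. VIM, the intermediate filament of radial glia and mesenchymal cells, had 6231, 6453 and 6325 TPM in U251, against 5339 ± 867.5 TPM in BJ, and did not differ from BJ beyond the spread (log2 difference -0.05, adjusted p = 0.936). GFAP, the intermediate filament of astrocytes, had only 1.98, 5.26 and 2.1 TPM in U251, against 8.6 ± 2.52 TPM in SK-Mel 24 and 2.92 TPM in Caco2. It was called higher against the other lines' mean (log2 difference 1.54, adjusted p = 0.00275), and not with limma on log2(TPM + 1). S100B averaged 16.1 ± 2.73 TPM in U251, far under 7822 ± 1439 TPM in SK-Mel 24 and 1665 TPM in SK-Mel 28.

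The glutamate transporter SLC1A3 averaged 29.3 ± 5.39 TPM in U251 (log2 difference 4.5, adjusted p = 9.91e-16), under Caco2 at 89.6 TPM and U2-OS at 34.0 TPM, whereas the other astrocytic transporter, SLC1A2, was at 0.0224 ± 0.009 TPM. The water channel AQP4 and the proteoglycan NCAN had no count in U251. However, AQP4 was too low across the lines to test, and NCAN passed in neither direction. ALDH1L1, a folate enzyme of astrocytes, was at 0.225 ± 0.0743 TPM, against 156.5 ± 23 TPM in RT4. BCAN, a brain proteoglycan, averaged 20.7 ± 2.55 TPM in U251 and 11.7 ± 2.94 TPM in U2-OS, and SOX9 averaged 56.3 ± 5.66 TPM in U251 and 50.9 ± 6.73 TPM in U2-OS. The gap junction gene GJA1 and the receptor phosphatase PTPRZ1 were called higher at 59.0 ± 19.1 and 4.57 ± 2.02 TPM, with BJ at 223.7 TPM and SK-Mel 24 at 89 TPM above them. APOE (0.286 ± 0.143 TPM), ALDH1L1, SLC1A2 and CLU (93.5 ± 8.06 TPM) were lower. Without HepG2 the calls of SLC1A2 (-0.86, adjusted p = 0.11) and CLU (-0.69) were lost. The CLU call was also lost with limma, with the block and without U251 replicate 2, RT4 replicate 3 or SK-Mel 28 replicate 2.

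Of 20 tested transcription factors and markers of neural stem cells, 10 were higher and 5 were lower, against 15.0% higher and 11.6% lower over all tested genes, with a median log2 difference of 1.49. The lower count was 3 without Caco2 replicate 1 or BJ replicate 3. NR2E1, PAX6 and SOX3 were among the enriched genes. NR2E1, the orphan receptor TLX, averaged 3.87 ± 0.567 TPM in U251 and 0.322 ± 0.154 TPM in Caco2 (11.4-fold by the fit, adjusted p = 0.000117). PAX6, named after its value was seen, averaged 26.0 ± 5.22 TPM in U251 and 3.31 ± 1.64 TPM in A549. POU3F2, a POU factor of neural progenitors, had 23.2, 32.4 and 19.7 TPM in U251, against 21.2 ± 5.31 TPM in SK-Mel 24 and 14.7 ± 2.76 TPM in SK-Mel 28, and was at or near 0 elsewhere. The same list held genes at the bottom of the range. SALL2 had 0.0978 ± 0.0612 TPM in U251, against at least 1.33 TPM in the mean of each other line, and was also among the lowest genes, and PROM1, which encodes the stem cell antigen CD133, had 0.254 ± 0.277 TPM in U251, against 124.4 ± 55.4 TPM in Caco2. The PROM1 call was lost without BJ replicate 3.

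Neuronal and oligodendrocyte genes did not share one direction. Of 18 tested neuronal genes, 8 were higher and 2 lower (median log2 difference 0.51), against 15.0% higher and 11.6% lower over all tested genes, so that the lower share of 11.1% was close to that of all genes. UCHL1, an abundant neuronal deubiquitinase, had 1891, 1844 and 1991 TPM in U251, against 1126 ± 70.2 TPM in A549 and 859.8 TPM in BJ. All U251 libraries were above all others by TPM. By the fit, the log2 differences of 0.77 from A549 (adjusted p = 0.0561) and 0.85 from BJ (adjusted p = 0.0327) were both under 1. The microtubule protein MAP2 (16.2 ± 0.67 TPM), the synaptic calcium sensor SYT1 (20.0 ± 4.61 TPM) and the adhesion molecule NCAM1 (26.1 ± 2.64 TPM) were higher than the other lines' mean, with SK-Mel 24 at 16.9, 26.3 and 43.6 TPM. The vesicle protein SYP and the glutamate carrier SLC17A7 were lower, at 0.251 and 0.0797 TPM, but not with limma. Of 12 tested genes of the oligodendrocyte lineage, 1 was higher and 2 were lower (median -1.68). These were GPR17 at 0.446 ± 0.0649 TPM, MBP at 4.31 ± 0.666 TPM and the progenitor proteoglycan CSPG4 at 0.34 ± 0.116 TPM, and the lineage factor OLIG2 was at 0.007 TPM.

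Among genes used to describe glioblastoma subtypes, the mesenchymal list had 10 of 22 genes higher and 3 lower (median 0.84), and the classical list had 8 of 13 higher and 2 lower (median 1.66). The lower shares of 13.6 and 15.4% were near the 11.6% of all tested genes, of which 15.0% were higher. In the mesenchymal list, the receptor tyrosine kinase AXL had 482.5, 412.6 and 359.7 TPM in U251, against 192.1 ± 6.83 TPM in SK-Mel 24 and 188.2 TPM in BJ. Every U251 library was above all others for AXL, although the margin did not reach 4-fold. CHI3L1, a common mesenchymal marker, was at 0.193 ± 0.0365 TPM in U251, against 21.9 ± 2.03 TPM in Caco2, and TIMP1, CEBPD and LGALS3 were the genes called lower.

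In the classical list, CDH4, a cadherin of the nervous system, averaged 30.8 ± 8.24 TPM in U251 and 10.6 ± 3.09 TPM in U2-OS. JAG1, a ligand of NOTCH receptors, had 138.8, 171.4 and 129.0 TPM in U251, against 32.5 ± 10.2 TPM in A549, and was enriched 4.69-fold (adjusted p = 1.78e-06). NOTCH3 and GLI2, the effector of hedgehog signals, were lower, at 0.118 ± 0.106 and 0.0138 ± 0.0155 TPM in U251, and the GLI2 call was lost without HepG2 replicate 2. Over the NOTCH list, 5 of 18 tested genes were higher (27.8%, against 15.0% of all tested genes) and 3 lower (16.7%, against 11.6%), with a median of 0.38. With limma 3 were higher, and with DESeq2 5 were lower.

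The list of glioblastoma pathway genes had 5 of 24 genes higher (20.8%, against 15.0% of all tested genes) and 6 lower (25.0%, against 11.6%), with a median log2 difference of -0.36. The higher count was 3 without HepG2 or without U251 replicate 2. MDM2, a ubiquitin ligase, had 20.6, 30.9 and 14.0 TPM in U251, and its mean of 21.8 TPM was below that of each other line, although SK-Mel 28 averaged 26.7 TPM and overlapped (log2 difference -1.66, adjusted p = 3.64e-06). EGFR had 22.9, 25.6 and 12.8 TPM in U251, against 38.1 ± 6.47 TPM in A549 and 28.3 TPM in RT4. Its log2 difference of 1.15 (adjusted p = 8.9e-06) fell to 0.96 without HepG2 and to 0.98 without U251 replicate 2, which lost the call. PIK3CA (21.7 ± 5.89 TPM, 1.15) lost its call in the same settings, at 0.96 and 0.93. CDK6 (29.6 ± 11 TPM, 1.3, and 0.99 with the block) and MTAP were also called higher.

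Among the genes called lower, MGMT, the repair enzyme for alkylated guanine whose promoter methylation is read in the clinic, had 0.0332, 0.0335 and 0 TPM in U251, against 0.0114 TPM in SK-Mel 24 and 29.8 ± 3.13 TPM in Caco2. The log2 difference was -7.52 (SE 0.97, adjusted p = 4.6e-07), and the call was lost without SK-Mel 24 replicate 2 (adjusted p = 1), when that line held no count. The neurofibromin gene NF1 had 7.04, 12.7 and 6.43 TPM in U251 (log2 difference -1.82, adjusted p = 2.03e-10). IDH1 (67.3 ± 8.88 TPM, -1.17) was lower by a small margin, and its call was lost without HepG2, at -0.96. The remaining 13 tested genes passed in neither direction, among them CDK4 at 239.9 TPM, RB1 at 37.6 TPM and PDGFRA at 1.03 TPM in U251. The MGMT window (chr10:129466991-129467290, plus strand, RefSeq, GRCh38.p14) is shown because it is dense in CpG pairs, marked in capitals: it holds 45, and 94.6% of the windows of tested genes hold fewer.
MGMT: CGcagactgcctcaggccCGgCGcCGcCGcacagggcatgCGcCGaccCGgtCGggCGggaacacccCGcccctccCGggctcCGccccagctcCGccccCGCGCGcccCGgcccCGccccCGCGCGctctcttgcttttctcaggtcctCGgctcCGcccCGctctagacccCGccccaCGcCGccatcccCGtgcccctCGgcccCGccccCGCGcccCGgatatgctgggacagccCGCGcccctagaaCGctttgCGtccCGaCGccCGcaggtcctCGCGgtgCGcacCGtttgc
Methylation was not measured, and its part in the MGMT level was not tested.

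Eph receptors and ephrins, which guide cells by contact, gave 8 of 21 tested genes higher and 4 lower, against 15.0% higher and 11.6% lower over all tested genes, with a median log2 difference of -0.46. Among the receptors, EPHA2 averaged 123.3 ± 32.3 TPM in U251 and 114.2 ± 6.56 TPM in SK-Mel 24, EPHB2 averaged 27.7 ± 1.55 TPM in U251 and 33.2 ± 2.73 TPM in U2-OS, and EPHA5 averaged 8.95 ± 3.59 TPM in U251 and 5.33 ± 1.52 TPM in U2-OS. These 3 were higher than the other lines' mean, as were EPHA3, EPHA6, EPHB1 and EPHB3. EPHA1 and EPHA4 were lower, at 1.43 and 2.28 TPM, and EPHA7 had no count in U251. Of the ligands, EFNB2 was higher, at 31.6 ± 4.65 TPM in U251 and 25.1 ± 5.78 TPM in BJ (log2 difference from the other lines' mean 4.25, adjusted p = 8.64e-18). EFNA1 and EFNB1 were lower, at 5.15 ± 1.37 and 2.01 ± 0.701 TPM, while EFNA5, a ligand of EPHA3, averaged 3.89 ± 1.27 TPM and did not pass. Calls were lost without HepG2 for EPHB3 (0.94) and EFNA1 (-0.67), without U251 replicate 1 for EPHA4 (-0.98), and with limma for EPHA6, EPHB3, EPHA1 and EFNB1.

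Of 30 tested axon guidance genes, 14 were higher and 5 lower (median 0.86), against 15.0% higher and 11.6% lower over all tested genes. The lower count was 3 without Caco2 replicate 1, and the higher count was 9 with limma. The semaphorin and VEGF co-receptor NRP2 had 339.9, 392.7 and 343.3 TPM in U251, against 197.2 ± 3.74 TPM in SK-Mel 28 and 186 ± 13.7 TPM in SK-Mel 24, and all U251 libraries were above all others. UNC5C averaged 13.4 ± 2.72 TPM in U251 and 6.72 ± 1.19 TPM in SK-Mel 24. Of the secreted SLIT cues, SLIT2 was higher at 26.2 ± 6.23 TPM and SLIT3 lower at 0.241 ± 0.0433 TPM. Of 20 tested glutamate signalling genes, 7 were higher and 4 lower (median -0.22). With limma 3 were higher and 0 lower, and the lower count was 2 without HepG2 replicate 3. One of the 4, GRIN2C (log2 difference -1.05), lost its call without most single libraries. The receptor genes GRIN2A and GRIA3 were called higher at only 0.223 and 0.314 TPM, with at least 1 other line at 0 for each.

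Many matrix genes and growth factors were higher in U251 than in the other lines' mean, but their sums were not the highest of the lines. The matrix list summed to 7372 TPM in U251, under BJ (20256), SK-Mel 24 (16765), SK-Mel 28 (12012) and U2-OS (7861). That sum was above those of A549 (4428), Caco2 (2547), RT4 (1215) and HepG2 (1212). Of 28 matrix and invasion genes, 17 were higher (60.7%, against 15.0% of all tested genes), with a median log2 difference of 2.55. The 3 lower genes were 10.7% of the list, near the 11.6% of all tested genes. TNC, tenascin C of the tumour matrix, had 528.9, 617.0 and 622.1 TPM in U251, against 531 ± 101.1 TPM in SK-Mel 28 and 445.8 TPM in SK-Mel 24. HAS2, a hyaluronan synthase, averaged 40.6 ± 14.2 TPM in U251 and 16.1 ± 0.524 TPM in SK-Mel 28, and the collagen COL6A3 averaged 89.9 ± 15.1 TPM in U251 and 616.8 ± 94.4 TPM in BJ. The collagenase MMP1 and the inhibitors TIMP1 and TIMP3 were the genes called lower, at 0.213, 201.7 and 28.0 TPM. The MMP1 call was lost without A549 replicate 1 or 3, and the TIMP3 call without U251 replicate 1, RT4 replicate 1, SK-Mel 28 replicate 1, U2-OS replicate 1 or A549 replicate 2.

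Of 24 angiogenic and growth factor genes, 16 were higher (66.7%, against 15.0% of all tested genes). Only 1 was lower (4.17%, against 11.6%), and the median was 2.42. The list summed to 854 TPM in U251, under U2-OS (922 TPM) and above each other line. PTN, the neurite growth factor pleiotrophin, had 69.8, 82.2 and 71.1 TPM in U251, against 47 ± 12.1 TPM in U2-OS, 45.2 TPM in BJ and 35.7 TPM in SK-Mel 24. TGFB2 averaged 71.5 ± 17.4 TPM in U251 and 123 ± 8.04 TPM in U2-OS, and FGF5 averaged 21.5 ± 5.24 TPM in U251 and 28.9 ± 24.8 TPM in BJ. ANGPTL4, a target of PPAR receptors, was the gene called lower, with no count in any U251 library.

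Of 19 tested inflammatory genes of the NF-kB list, 6 were higher and 6 lower (median -1.25), against 15.0% higher and 11.6% lower over all tested genes, and 3 were higher with limma. IL6, CXCL2 and CSF2 were called higher at low levels (2.46, 2.06 and 2.70 TPM), those of IL6 and CXCL2 not with limma, and IL6 was higher in BJ at 16.5 TPM. ICAM1, an adhesion molecule of leukocyte recruitment, had 0.185, 0.0845 and 0.355 TPM in U251, against 245.8 ± 2.64 TPM in SK-Mel 28 and 0.242 TPM in U2-OS. IL1A, IL1B and PTGS2 were also lower, each under 0.4 TPM on average. The IL1B call was lost without U251 replicate 3, HepG2 replicate 1 or U2-OS replicate 1, and the PTGS2 call without HepG2 replicate 3. Of 19 tested genes of the HOXA and HOXD clusters, the HOX clusters listed, 6 were higher and 5 lower (median -0.22). HOXD10, HOXD11, HOXD13 and HOXD9 were higher, at 15.6, 11.5, 2.67 and 2.31 TPM, while HOXA4, HOXA10 and HOXA13 were lower, each under 1 TPM. The HOXD9 call was lost with limma (0.53), and the HOXA10 call without SK-Mel 24 replicate 2.

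Markers of other cell types were examined as controls on identity. Of 20 epithelial genes none was higher and 9 were lower (median -2.90), with CDH1 at 0.0131, 0.0265 and 0.241 TPM and EPCAM at 0, 0.0395 and 0.811 TPM in U251. The EPCAM call was lost without SK-Mel 24 replicate 1. Of 12 hepatocyte genes none was higher and 8 were lower (median -3.99). Summed over the lists, epithelial genes gave 130.5 to 184.9 TPM and hepatocyte genes 4.2 to 6.2 TPM in the U251 libraries, against 87.3 to 14508 and 0.2 to 25912 TPM in the other 24. Fibroblast genes were mixed, with 10 of 19 higher and 5 lower. COL1A2 (157.8 ± 33.2 TPM) and PRRX1 (19.9 ± 4.19 TPM) were higher than the other lines' mean and under BJ, while COL3A1, LUM, DCN and FBLN1 were at 0.056, 0.0507, 0.1 and 0.927 TPM, against 639.5, 1772, 544.4 and 1187 TPM in BJ. The microglial list had 3 of 11 genes higher and 3 lower, and the endothelial list had 1 of 11 higher and 4 lower, against 15.0% higher and 11.6% lower over all tested genes. The endothelial lower count was 2 without U251 replicate 1. The macrophage receptor CSF1R, one of the microglial genes called higher, was at 6.96 ± 1.24 TPM in U251 and 2.8 ± 0.9 TPM in Caco2. The defining genes AIF1, TYROBP and P2RY12 of microglia had no count. Melanocyte genes gave 3 of 13 higher and 2 lower, and with limma 0 were higher and 6 lower. Of the 3 called higher, TYRP1 and EDNRB were at 0.822 and 0.262 TPM although both SK-Mel lines lay above, at 33.3 TPM for TYRP1 in SK-Mel 28 and 66.3 TPM for EDNRB in SK-Mel 24. The part of the serum-grown culture state in any of these lists was not tested.

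**Figure D4:**
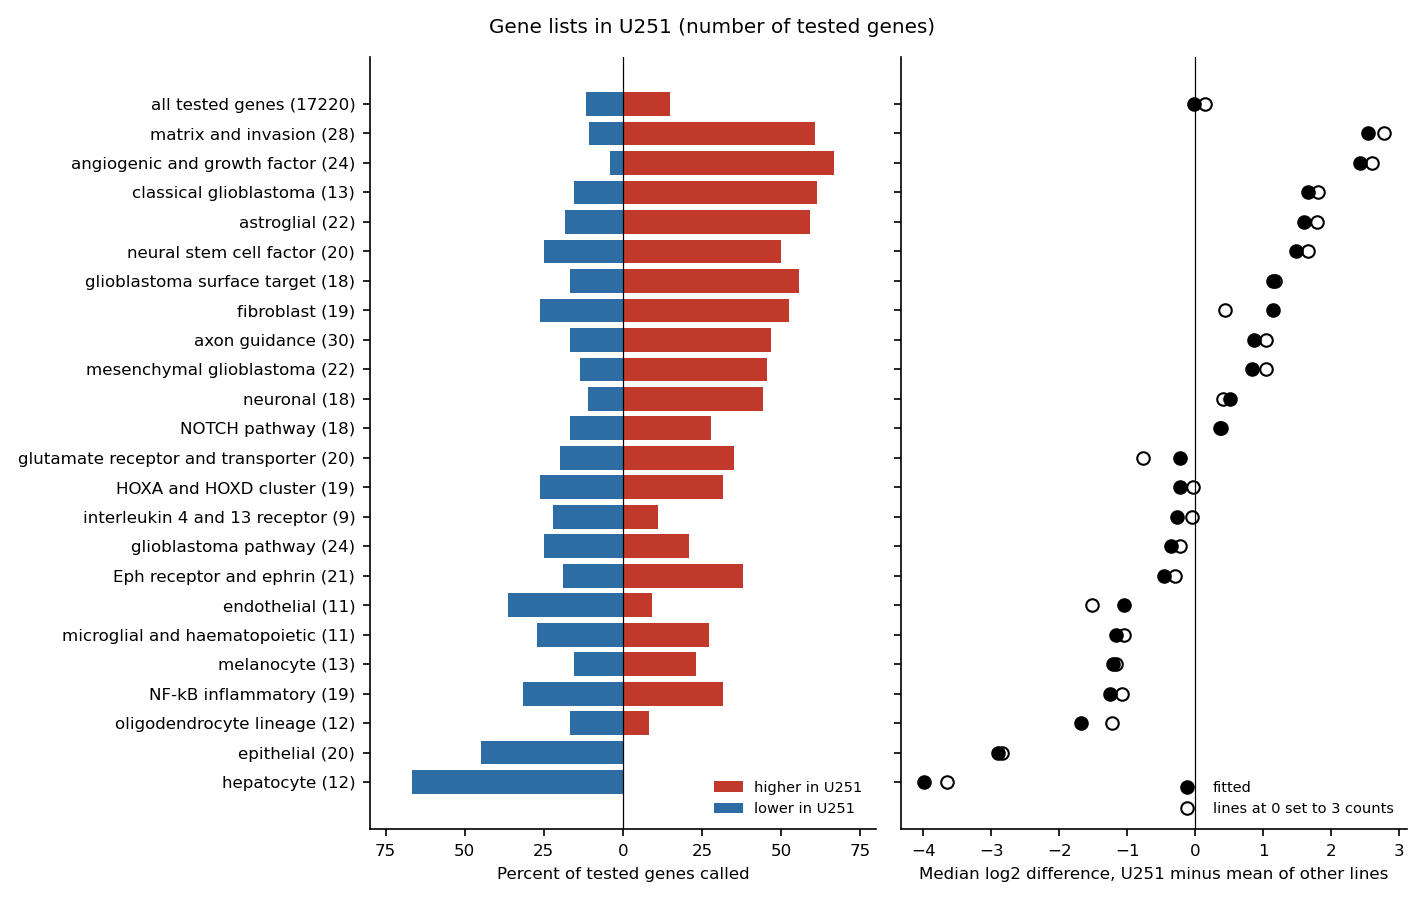
Share of the tested genes of each list called higher or lower in U251 (left, percent) and their median log2 difference from the mean of the other 8 lines (right), with the number of tested genes in brackets, filled points for fitted values and open points with lines at 0 set to 3 counts. Matrix and growth factor lists have 60.7 and 66.7% of genes higher, against 15.0% of all genes, and epithelial and hepatocyte lists have none higher.

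Some enriched genes differed by transcript. In ABR, a regulator of small GTPases at 42.2 ± 1.62 TPM in U251 and 5.68 ± 2.96 TPM in SK-Mel 28, a pair of coding transcripts held 27.7 and 11.5 TPM on average in U251, and neither exceeded 0.01 TPM in any of the other 24 libraries. In SH3BGR, a single coding transcript held 70.6, 65.1 and 79.4 TPM in U251, against at most 1.71 TPM elsewhere. IQCG, named after its value was seen, had 68.6 TPM on average in a transcript annotated as a retained intron, IQCG-209, against at most 0.78 TPM in any other library. Across the 5482 genes with more than 1 transcript that were expressed in every library, 2 (0.0365%) had a leading transcript in all U251 libraries that led in no other library. In MSL1, a subunit of a histone acetyltransferase complex, a retained-intron transcript held 33.9, 35.3 and 34.8% of the gene in U251, against a median of 27.8% and up to 41.1% elsewhere. In CYTH1, an exchange factor for ARF GTPases, CYTH1-207 held 17.7, 26.6 and 33.4%, against at most 18.4% in the other libraries. Shares of transcripts are estimates of the authors' software, and for both genes the share in at least 1 U251 library lay within the range of the other lines.

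By chromosome, the median log2 difference of U251 from the other lines was 0.16 for 863 tested genes of chromosome 7 and 0.24 for 662 genes of chromosome 10, against -0.02 over all tested genes. Gain of chromosome 7 and loss of chromosome 10 are the textbook changes of glioblastoma. Single U251 libraries gave 0.17, 0.19 and 0.13 for chromosome 7 and 0.25, 0.37 and 0.17 for chromosome 10. The highest medians were 0.29 for chromosomes 3 and 6, and the lowest was -0.45 for chromosome 22. For chromosome 19, U251 replicate 2 gave -0.25, against 0.11 and 0.21 in replicates 1 and 3. Medians over genes are not copy numbers, and the copy numbers of all 9 lines enter each of them.

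**Figure D5:**
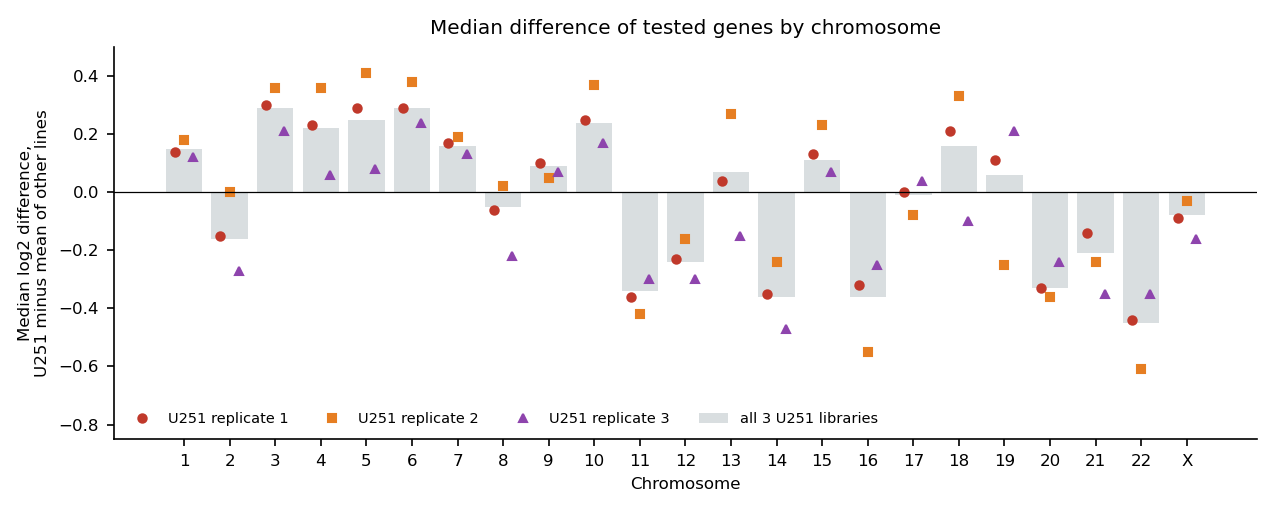
Median log2 difference of tested genes between U251 and the mean of the other 8 lines (vertical axis) for each chromosome (horizontal axis), with a grey bar for all 3 U251 libraries and a symbol for each library. Chromosomes 7 and 10 both lie above 0, at 0.16 and 0.24, and chromosome 22 lies lowest at -0.45.

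Promoter windows of the enriched and lowest genes were compared with those of all tested genes, without a test. RefSeq windows matched 34 of the 54 enriched genes, 66 of the 100 lowest genes and 12412 of all 17220. The median number of CpG pairs was 19.5 in enriched genes, 25.5 in lowest genes and 25.0 in all. At least 10 CpG pairs were present in 70.6% of the windows of enriched genes, 81.8% of those of lowest genes and 82.5% of all windows. The letters CCAAT, searched on both strands, occurred in 17 of the 34 windows of enriched genes, 18 of the 66 of lowest genes (27.3%) and 36.1% of all windows. The letters TATAAA occurred in 11.8, 6.06 and 6.69% of these windows.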

How the data were processed

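Poly-A RNA of 9 cell lines, 3 libraries each, was measured with a stranded kit. The authors deposited estimated counts and TPM per transcript for each library, in the format of kallisto. CASAVA 1.8, kallisto 0.43.1 and GRCh 38 are listed per the submitters' processing notes. Here both units were summed to GENCODE 29 genes, of 176241 transcripts 16354 (9.28%) had no match there and were left out, and the sums of estimated counts were rounded. Genes passing edgeR's filter on low counts were fitted over all 27 libraries with 1 term per line (edgeR 4.0.16, R 4.3.3, quasi-likelihood, TMM, Benjamini-Hochberg adjustment). U251 was set against the mean of the other 8 lines and against each line. limma 3.58.1 on log2(TPM + 1), DESeq2 1.42.0, other filters and scalings, and fits without each library, without HepG2, within one medium and with a block were alternatives. Tables were made with pandas 2.3.3 under Python 3.11.15. Named genes were the 4 markers, the 20 enriched and 10 lowest coding genes of largest margin that reached 5 TPM (in U251, or in each other line), up to 4 called genes per list and direction, all genes of the astroglial, pathway, interleukin and Eph lists, and the neighbours of CDKN2A. The members and lists were chosen with earlier results of these data known. Scripts were tested on simulated data. Some genes that the rule names are not reported here.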

Additional observations from a re-analysis of the deposited data

Results flagged for a closer look

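Transcripts with no match in GENCODE 29, which enter no comparison, held 2.75 ± 0.16% of the estimated counts in U251 (SD, n = 3, range 2.62 to 2.93%), against 2.53 ± 0.45% in the other 24 libraries (range 0.75 to 3.06%). The result was noted because a signal appears in data that the comparisons do not use, and the U251 values lie within the range of the other lines.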

How the results depend on the processing

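A test against a 2-fold change gave 1700 genes higher and 1300 lower in U251, and lines of the same medium alone gave 3452 higher and 3004 lower. The enriched count was 34 with limma, 28 of them shared with the 54, and 100 with a margin of 2-fold. The lowest count was 16 with limma. No paired analysis was run, because the labels give no pairing of libraries between lines. With the P number of the titles, whose meaning is not stated, as a block, enriched genes numbered 17, of which 15 were shared. U251 shared no P number with either SK-Mel line or with Caco2. Leaving out single libraries gave 2396 to 2715 genes higher, 1824 to 2018 lower, 44 to 55 enriched and 92 to 102 lowest.

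The chromosome 7 median was 0.1 with relative log scaling, 0.08 with DESeq2, -0.06 with no filter on low counts, 0.12 without HepG2 and 0.3 with limma, and 0.13 to 0.17 without single libraries. For chromosome 10 it was 0.08 with no filter and 0.39 with limma, and 0.2 to 0.3 without single libraries. Over all genes the medians were -0.08, -0.09, -0.2, -0.02 and 0.14 in those 5 settings. Genes with a U251 leading transcript numbered 0 at 5 TPM everywhere and 6 on estimated counts.

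Signs reversed with limma for LHX2 (-0.13), PDGFRA (-0.59), CDK4 (0.19), EFNA5 (-0.16), GRIA3 (-0.16), TYRP1 (-0.24), EDNRB (-1.54), IFNWP19 (-0.13) and DMRTA1 (-0.23). Without HepG2 they reversed for PDGFRA (-0.56), TERT (0.48) and JAK1 (-0.03), and with the block for TERT (0.43). Leaving out single libraries gave -0.23 to 0.21 for TERT, -0.02 to 0.38 for EPHB4 and -0.56 to 0.06 for EFNB3. Of the other settings for named genes, 1695 kept direction and call, 75 lost the call and 29 gained it. The cause was not tested. With DESeq2 the lower counts were 14 for epithelial and 7 for astroglial genes, and with limma 5 classical and 9 axon guidance genes were higher. Pathway genes higher numbered 3 without HepG2 or without U251 replicate 2. Neural stem genes lower numbered 3 without Caco2 replicate 1 or BJ replicate 3. With 3 libraries a line, values resting on under 10 counts set only bounds.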
